A study of Mus musculus with 20 samples.

Results

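In mice that lack adenylyl cyclases 1 and 8 (DKO), the 5 arrays of the amygdala were set against the 5 arrays of the hippocampus, 10 of the 20 arrays of the series. The members were taken from the sample titles, and each amygdala array was paired with the hippocampus array of the same time label. The question was which differences between these regions remain without AC1 and AC8, and the 10 arrays of WT mice served as the comparison. All mice were 2 months old male C57BL/6 mice. They were taken without treatment (baseline), or at 0 hr, 1 hr, 48 hr or 1 wk after conditioned fear (CF) training. Training was a 5 min trial with white noise and a single foot shock of 0.7 mA for 2 sec. The chamber also held coconut oil as an olfactory cue. The 1 wk mice went through a 5 min test first. DKO mice have the genes for AC1 and AC8 knocked out. They came from matings kept on doxycycline until weaning and could carry a tetop-AC8 or a CaMKII-tTA transgene alone, or neither. WT mice were not their littermates. Each array held RNA from 5 to 10 mice, pooled, from bilateral 1 mm micropunches, and there was 1 array for each region, genotype and time point. The sources used here do not say whether both regions came from the same mice. The 5 time labels therefore served as the replicates, n = 5 arrays for each region. The p-values measure the spread of the paired difference between regions over these labels. The pools of different labels also differ in time after training.

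AC1 and AC8 are the adenylyl cyclases that Ca2+ and calmodulin stimulate. They turn a Ca2+ signal in neurons into cAMP, which activates protein kinase A and, through it, the transcription factor CREB. The amygdala gives emotional value to a context and holds glutamatergic projection neurons in its basolateral part and GABAergic, peptide-rich neurons in its central and medial parts. The hippocampus encodes the context itself in the granule cells of the dentate gyrus and the pyramidal cells of CA3 and CA1. Values are given as deposited, in log2 units of RMA expression for a transcript cluster, the group of probes that stands for 1 gene or part of one. A difference is always the amygdala minus the hippocampus, so that a log2 difference of 1 is a 2-fold higher level in the amygdala. The 5 values of a region are listed in the order baseline, 0 hr, 1 hr, 48 hr and 1 wk. Levels of different probes were not set against each other, since the brightness of a probe depends on its sequence.

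The disrupted genes were read first. For Adcy1, the DKO arrays read 7.51, 7.68, 7.77, 7.55 and 7.73 in the amygdala and 7.71, 7.67, 7.8, 7.73 and 7.68 in the hippocampus. In WT mice it read 8.26, 8.37, 7.97, 8.38 and 8.07 in the amygdala and 9.04, 9.32, 9.53, 9.23 and 9.32 in the hippocampus. The DKO arrays of both regions overlapped and lay below the WT arrays of their region. In DKO mice the regions did not differ by the test (log2 difference -0.07, SE 0.06, adjusted p = 0.401). In WT mice Adcy1 was lower in the amygdala by 1.08 on the log2 scale (SE 0.11, adjusted p = 0.000279). The difference between the genotypes in this regional difference, 1.01 (SE 0.13, adjusted p = 0.0273), was among the 5 that passed the test over all transcript clusters. The Adcy8 probes read 5.89, 5.59, 5.52, 5.46 and 5.8 in the amygdala and 5.42, 5.37, 5.22, 5.25 and 5.79 in the hippocampus. WT mice gave 7.26, 7.15, 7.08, 7.09 and 6.94 in the amygdala and 7.25, 7.48, 7.14, 7.52 and 7.66 in the hippocampus. Every DKO array was below every WT array. Adcy8 was slightly higher in the DKO amygdala (log2 difference 0.24, SE 0.07, adjusted p = 0.0235), but the regions overlapped and the call was lost without the pairing by time label (adjusted p = 0.115) and after a further quantile normalization (adjusted p = 0.129). Its difference between genotypes was 0.55 (SE 0.13) and did not pass the test (adjusted p = 0.129). Which part of each gene its probes cover relative to the disrupted part was not examined.

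Of 10 measured adenylyl cyclase genes, 3 were higher in the DKO amygdala, Adcy8 among them, 2 were lower and 5 did not pass the test. Adcy5, the main cyclase of striatal neurons, read 7.57, 7.67, 7.49, 7.54 and 7.7 in the amygdala and 6.81, 6.76, 6.77, 6.94 and 6.68 in the hippocampus. Every amygdala array lay above every hippocampus array (log2 difference 0.80, SE 0.07, adjusted p = 7.73e-06), and WT mice showed the same direction (0.96). Adcy2 gave 8.57, 8.67, 8.73, 8.3 and 8.73 in the amygdala and 9.19, 9.06, 9.3, 8.99 and 9.32 in the hippocampus. Here the amygdala arrays were the lower ones throughout (log2 difference -0.57, SE 0.06, adjusted p = 4.72e-05). Adcy9 was lower as well (-0.52) and Adcy3, the cyclase of olfactory neurons and cilia, was higher (0.33).

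**Figure D1:**
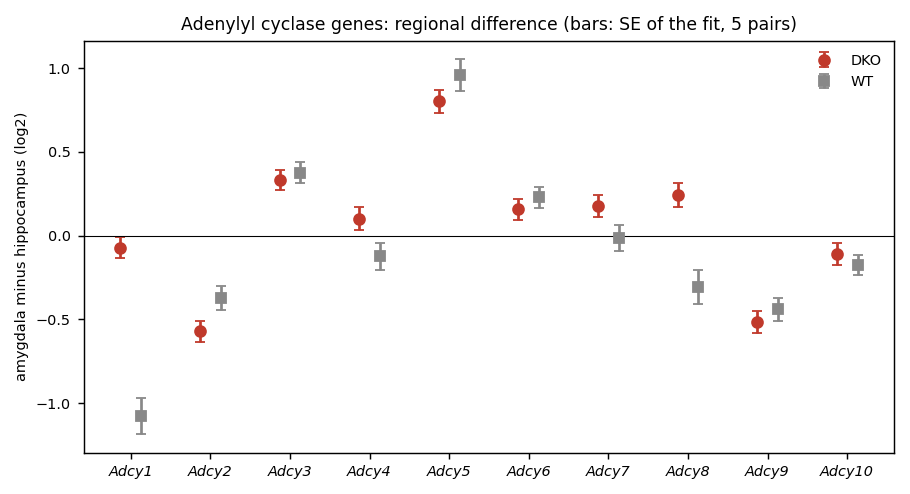
Log2 difference between amygdala and hippocampus for the 10 adenylyl cyclase genes, with DKO mice as red circles and WT mice as grey squares (bars: standard error of the fit, 5 pairs of arrays each). Adcy1 lies at -1.08 in WT mice and at -0.07 in DKO mice, while Adcy5 is positive and Adcy2 and Adcy9 are negative in both genotypes.

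Amygdala and hippocampus differed at many genes in DKO mice. Over all 28853 transcript clusters, 7919 (27.4%) differed between the regions in DKO mice at an adjusted p of 0.05, 3914 higher and 4005 lower in the amygdala. Many of these differences were small, and 777 were called and reached 1.5-fold, 293 higher and 484 lower. Among the 19938 genes with a transcript cluster of their own, 14.2% were higher and 14.2% were lower, and 1.22% were higher and 1.77% lower by 1.5-fold or more. These shares are the background for the counts of each gene list below. All 5 amygdala arrays lay above all 5 hippocampus arrays for 6.61% of the transcript clusters and below them for 6.87%. Tissue punches hold many cell types, so a lower number of cells of a type and less RNA per cell cannot be told apart in any of these values.

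Small differences depended on the level of the gene. Transcript clusters were put into 4 equal classes by mean level. In the class with the lowest level, 727 were higher and 166 were lower in the amygdala, whereas in the highest class 620 were higher and 2211 were lower. A further quantile normalization of the 10 arrays gave 167 higher and 267 lower in the lowest class and 1165 higher and 1205 lower in the highest. The values of an amygdala array had an SD of 1.71 to 1.82 over transcript clusters, against 1.83 to 1.87 on the hippocampus arrays. Centring each array on its median gave 2191 higher and 5450 lower, or 28.7% higher against 49.4% as deposited. At 1.5-fold the highest class held 113 higher and 207 lower as deposited, and 148 higher and 159 lower after quantile normalization.

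**Figure D2:**
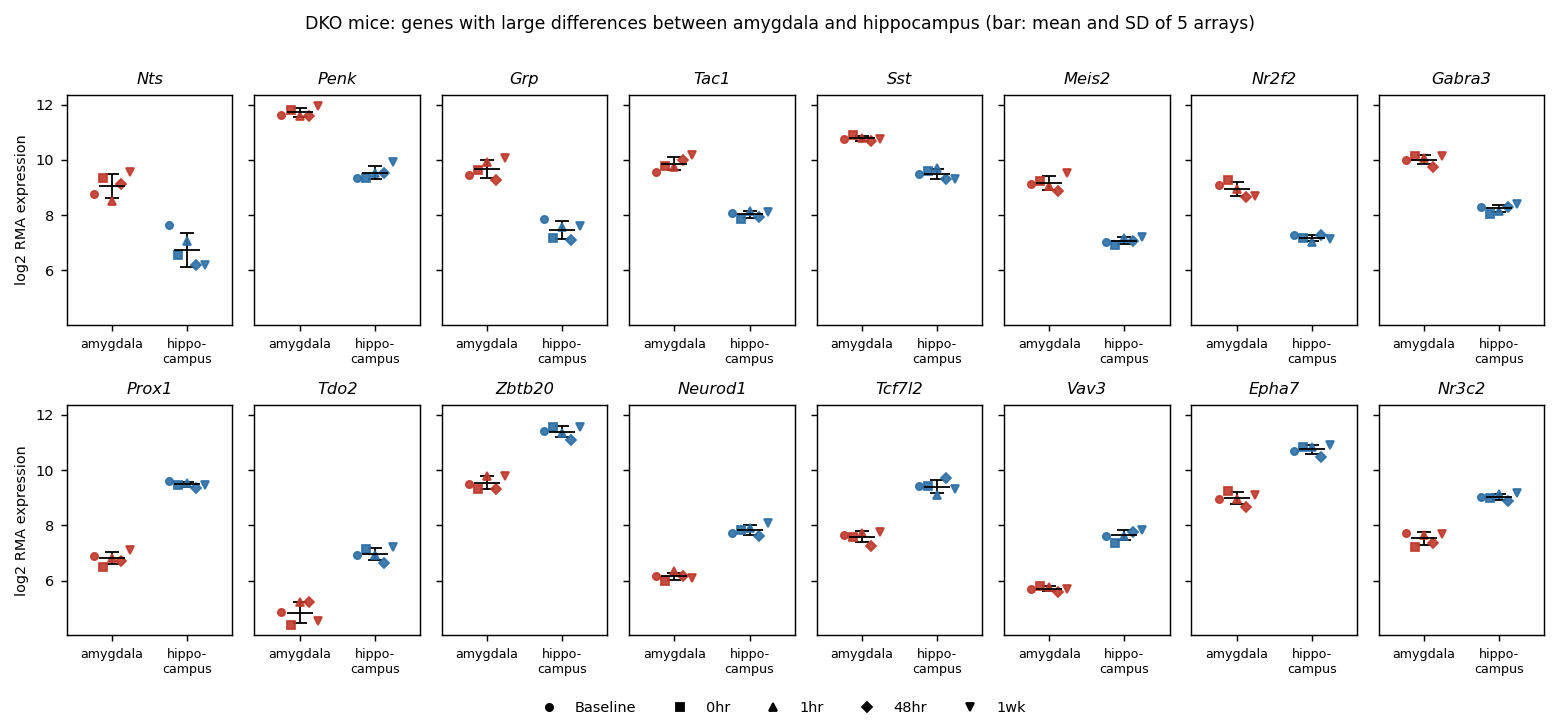
Log2 RMA expression of 16 genes in the 5 amygdala arrays (red, left) and the 5 hippocampus arrays (blue, right) of DKO mice, with a marker shape for each time label and the mean and SD as bars. In each panel the arrays of the regions do not overlap, as for Prox1 (6.51 to 7.11 in the amygdala, 9.36 to 9.62 in the hippocampus).

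Genes of the dentate gyrus were lower in the amygdala, and Prox1 had the largest difference of all named genes. Of 17 measured markers of dentate granule cells, 10 were lower in the DKO amygdala, none was higher and 7 did not pass the test, with a median of -0.67 against 0.04 over all genes. Prox1, the homeobox factor that specifies granule cells, read 6.88, 6.51, 6.82, 6.72 and 7.11 in the amygdala and 9.62, 9.46, 9.55, 9.36 and 9.45 in the hippocampus. The regions did not come near each other, and the level was 6.41-fold lower in the amygdala (log2 difference -2.68, SE 0.08, adjusted p = 5.7e-09). Tdo2, the tryptophan-degrading dioxygenase, had levels of 4.87, 4.4, 5.21, 5.21 and 4.54 in the amygdala and 6.91, 7.14, 6.91, 6.63 and 7.23 in the hippocampus. Its amygdala arrays spread more widely but stayed below all hippocampus arrays (log2 difference -2.12, SE 0.16, adjusted p = 3.04e-06). Lct, the lactase gene, gave 6.42, 6.52, 6.35, 5.92 and 6.49 in the amygdala and 8.37, 8.07, 8.43, 8.09 and 8.22 in the hippocampus. It was 3.73-fold lower in the amygdala (log2 difference -1.90, SE 0.09, adjusted p = 6.2e-08). The cation channel Trpc6 (-1.88), the desmosomal protein Dsp (-1.67) and Stxbp6 (-1.21) were lower too. The synaptic organiser C1ql2, also a granule cell marker, did not pass the test (-0.13).

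Genes expressed across the hippocampus followed. Of 14 such genes, 10 were lower in the DKO amygdala and 2 were higher. Zbtb20, a zinc finger factor needed for CA1 identity, read 9.48, 9.33, 9.78, 9.31 and 9.8 in the amygdala and 11.41, 11.57, 11.36, 11.1 and 11.55 in the hippocampus. All hippocampus arrays were above all amygdala arrays (log2 difference -1.86, SE 0.08, adjusted p = 6.2e-08), and its other transcript cluster gave -1.76. For Neurod1, a factor of granule cell formation, the values were 6.18, 5.98, 6.35, 6.18 and 6.09 in the amygdala and 7.71, 7.84, 7.91, 7.62 and 8.07 in the hippocampus. Again the regions were separate (log2 difference -1.68, SE 0.08, adjusted p = 1.01e-07). Nr3c2, the mineralocorticoid receptor, stood at 7.73, 7.23, 7.64, 7.35 and 7.7 in the amygdala and 9.02, 9.0, 9.13, 8.88 and 9.16 in the hippocampus. It was 2.84-fold lower (log2 difference -1.51, SE 0.07, adjusted p = 7.55e-08). The calcium sensor Hpca (-1.25) was lower, and Cnih3, an auxiliary subunit of AMPA receptors, was higher (0.74).

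The pyramidal cell fields gave a mixed picture. Of 16 genes of CA3 and CA2, 8 were lower and 2 were higher in the DKO amygdala, with a median of -0.19. Iyd, an iodotyrosine deiodinase, led them with 6.87, 6.83, 6.84, 6.85 and 6.38 in the amygdala and 7.99, 8.27, 8.06, 8.22 and 8.31 in the hippocampus. The 1 wk amygdala array was the lowest, and the regions were far apart (log2 difference -1.41, SE 0.10, adjusted p = 1.35e-06). The kainate receptor subunit Grik4 was lower (-0.49), as was Amigo2, a CA2 marker (-0.26, not called after a further quantile normalization, adjusted p = 0.0505), and Bok did not pass the test (-0.06). Of 12 genes of CA1 and the subiculum, 3 were lower, led by Ndst4 (-1.23), and 4 were higher. The CA1 markers Fibcd1 (0.13) and Mpped1 (0.16) did not pass the test, and Wfs1, which also marks the central amygdala, was higher (0.72).

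Genes of the amygdala were higher in the amygdala arrays, most often those of its central, medial and intercalated parts. Of 31 measured, 26 were higher, 2 were lower and 3 did not pass the test, with a median of 0.54 in DKO mice and 0.57 in WT mice. For 25 of them every amygdala array lay above every hippocampus array. Meis2, a homeobox factor of ganglionic eminence lineages, read 9.13, 9.25, 9.05, 8.89 and 9.53 in the amygdala and 7.02, 6.93, 7.19, 7.06 and 7.21 in the hippocampus. It was 4.25-fold higher in the amygdala (log2 difference 2.09, SE 0.08, adjusted p = 2.32e-08). Isl1, a LIM homeobox factor, gave 6.39, 6.5, 6.36, 6.38 and 6.49 in the amygdala and 5.69, 5.67, 5.43, 5.78 and 5.66 in the hippocampus. No arrays of the regions overlapped (log2 difference 0.78, SE 0.06, adjusted p = 4.84e-06). Tac2, the neurokinin B precursor (1.59), and the intercalated cell markers Foxp2 (0.54) and Tshz1 (0.45) were higher. The 2 lower genes were Prkcd (-1.25), the protein kinase C of lateral central amygdala neurons that is also abundant in the thalamus, and Zic1 (-0.53).

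Of 19 genes of the basolateral amygdala, 12 were higher, 4 were lower and 3 did not pass the test. The matricellular protein gene Ccn3 (1.62), the GPI-anchored Lypd1 (1.25), Otof (0.92), the factor Etv1 (0.89) and the R-spondin Rspo2 (0.56) were higher. Cyp26b1, which degrades retinoic acid, was higher by 0.25, and Lmo3 did not pass the test (0.15). After a further quantile normalization Cyp26b1 was no longer called (adjusted p = 0.14) and Lmo3 was called higher (0.24, adjusted p = 0.0289). The lower ones were Sema5a (-1.76), Neurod6 (-1.39), Slc17a6 (-1.14) and Bdnf (-0.50), genes that hippocampal or thalamic neurons also express.

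Among neuropeptides, more precursor genes were higher than lower in the amygdala. Of 45 measured, 23 were higher in the DKO amygdala, 3 were lower and 19 did not pass the test, and 10 of the higher ones reached 1.5-fold. Nts, the neurotensin precursor, read 8.76, 9.36, 8.5, 9.14 and 9.56 in the amygdala and 7.65, 6.57, 7.05, 6.2 and 6.21 in the hippocampus. The hippocampus arrays spread widely, with baseline the highest, and the amygdala arrays stayed above them (log2 difference 2.32, SE 0.26, adjusted p = 6.42e-05). Grp, the gastrin-releasing peptide of basolateral projection neurons, had 9.44, 9.65, 9.94, 9.26 and 10.06 in the amygdala and 7.86, 7.17, 7.59, 7.12 and 7.61 in the hippocampus. It was 4.59-fold higher (log2 difference 2.20, SE 0.11, adjusted p = 1.33e-07). Penk, the enkephalin precursor, gave 11.63, 11.8, 11.6, 11.59 and 11.97 in the amygdala and 9.35, 9.34, 9.52, 9.51 and 9.92 in the hippocampus. The 1 wk arrays were the highest of both regions, and the difference varied little between pairs (log2 difference 2.19, SE 0.07, adjusted p = 6.44e-09). Tac1, the substance P precursor, read 9.58, 9.79, 9.73, 10.0 and 10.18 in the amygdala and 8.08, 7.87, 8.15, 7.93 and 8.11 in the hippocampus. All 5 amygdala arrays were above the hippocampus (log2 difference 1.83, SE 0.09, adjusted p = 1.01e-07), by a smaller amount than in WT mice (2.47). The difference between genotypes, -0.65 (SE 0.28), did not pass the test (adjusted p = 0.196).

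Other peptides followed at lower folds. Sst, the somatostatin precursor of a class of interneurons, read 10.75, 10.91, 10.8, 10.69 and 10.75 in the amygdala and 9.5, 9.61, 9.72, 9.3 and 9.32 in the hippocampus. Its amygdala values lay close together, well above the hippocampus (log2 difference 1.29, SE 0.06, adjusted p = 1.31e-07). Crh, the corticotropin-releasing hormone precursor, gave 6.17, 6.53, 6.19, 6.31 and 6.56 in the amygdala and 5.54, 5.6, 5.54, 5.37 and 5.53 in the hippocampus. It was 1.79-fold higher (log2 difference 0.84, SE 0.07, adjusted p = 7.96e-06). Pcsk1, a convertase that cuts peptide precursors, was not in the list and is named here for its promoter. It read 8.43, 8.77, 8.73, 8.19 and 8.32 in the amygdala and 7.24, 7.02, 7.25, 7.12 and 7.12 in the hippocampus. The amygdala was higher at all times (log2 difference 1.34, SE 0.09, adjusted p = 1.05e-06). Cartpt, the CART peptide precursor, read 8.62, 8.57, 8.34, 8.8 and 8.19 in the amygdala and 7.74, 7.44, 7.52, 7.18 and 7.4 in the hippocampus, again without overlap (log2 difference 1.04, SE 0.11, adjusted p = 2.69e-05). Of the lower precursors, Bdnf (-0.50), a neurotrophin, and Chgb (-0.46), a granin of secretory vesicles, are both abundant in the hippocampus, and Nmb was lower by a small amount (-0.23), a call lost without the pairing (adjusted p = 0.0636).

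Sst, Cartpt and Pcsk1 are among the genes whose promoter holds the palindromic cAMP response element TGACGTCA, the site that CREB binds. Their promoter stretches are shown with the element in capitals, 5′ to 3′ on the strand of the gene, all from before the start of transcription (RefSeq, GRCm38.p6).
Sst, chr16:23890859-23890918, minus strand: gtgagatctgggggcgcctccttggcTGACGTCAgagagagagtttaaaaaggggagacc
Cartpt, chr13:99900762-99900821, minus strand: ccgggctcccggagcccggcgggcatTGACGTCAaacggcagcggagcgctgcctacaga
Pcsk1, chr13:75089753-75089812, plus strand: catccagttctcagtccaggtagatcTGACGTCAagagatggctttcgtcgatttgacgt
The element starts 48 bases before the start site of Sst, 112 before that of Cartpt and 78 before that of Pcsk1. Within 250 bases before the start, the 8 letters, which read the same on both strands, stood in 508 of 32851 promoters (1.55%). Among genes measured here they stood in 364 of 15562 (2.34%). They stood in 6 of 195 genes higher in the DKO amygdala by 1.5-fold (3.08%) and in 3 of 269 genes lower by 1.5-fold (1.12%). The other 3 higher genes were Zdbf2 (1.26), the somatostatin receptor gene Sstr2 (0.74) and Hs3st2 (0.63), and the lower ones were Clstn2 (-0.96), Tmem144 (-0.79) and Hs3st3a1 (-0.73). These counts are a description of the letters and say nothing of whether CREB binds there.

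Receptors for peptides leaned to the amygdala as well, with 24 of 46 higher, 4 lower and 18 not past the test. Many of these differences were small, and 18 were higher after a further quantile normalization. Trhr, the receptor for thyrotropin-releasing hormone, read 7.35, 7.57, 7.09, 7.73 and 6.97 in the amygdala and 5.62, 5.45, 5.76, 5.49 and 5.54 in the hippocampus. It was 3.42-fold higher (log2 difference 1.77, SE 0.12, adjusted p = 9.45e-07). Oprk1, the kappa opioid receptor, had 6.81, 7.1, 6.63, 6.57 and 6.81 in the amygdala and 5.5, 5.45, 5.45, 5.32 and 5.76 in the hippocampus. No arrays of the regions overlapped (log2 difference 1.29, SE 0.08, adjusted p = 5.52e-07). Cckbr, the main cholecystokinin receptor of brain, was higher (0.96). The neuropeptide Y receptors went the other way. Npy1r read 7.23, 6.98, 7.11, 6.79 and 7.16 in the amygdala and 7.73, 8.01, 8.0, 7.66 and 8.1 in the hippocampus, with the amygdala lower at every time (log2 difference -0.85, SE 0.08, adjusted p = 9.73e-06), and Npy5r (-0.56) and Npy2r (-0.54) were lower too.

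Subunits within a family of transmitter receptors divided between the regions. Of 16 GABA receptor subunits, 7 were higher in the DKO amygdala and 3 were lower. Gabra3 read 10.0, 10.13, 10.08, 9.73 and 10.14 in the amygdala and 8.31, 8.05, 8.17, 8.31 and 8.4 in the hippocampus. It was 3.4-fold higher in the amygdala (log2 difference 1.77, SE 0.08, adjusted p = 8.06e-08). Gabra5, the alpha subunit of extrasynaptic hippocampal receptors, gave 8.89, 8.84, 9.26, 8.69 and 9.22 in the amygdala and 10.04, 10.08, 10.2, 10.01 and 10.32 in the hippocampus. Its order was the reverse (log2 difference -1.15, SE 0.07, adjusted p = 3.1e-07). Gabrg1 (1.23) and Gabrg3 (0.97) were higher, and Gabra4 was lower (-0.72). Of 23 glutamate receptor genes, 6 were higher and 7 were lower. Grm8, a presynaptic metabotropic receptor, read 8.22, 8.83, 8.43, 8.21 and 8.69 in the amygdala and 7.04, 7.06, 7.0, 6.96 and 7.24 in the hippocampus, with no overlap (log2 difference 1.42, SE 0.08, adjusted p = 2.82e-07). Grin2a, an NMDA receptor subunit, read 9.16, 9.02, 9.12, 8.35 and 9.14 in the amygdala and 10.06, 10.01, 10.23, 9.71 and 10.3 in the hippocampus. The 48 hr amygdala array was far below the other 4, and all 5 were below the hippocampus (log2 difference -1.10, SE 0.07, adjusted p = 7.63e-07). The AMPA receptor subunits Gria1 (-0.39) and Gria2 (-0.37) were lower, and the kainate receptor subunit Grik3 (0.82) was higher.

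Of 38 receptors for monoamines, acetylcholine and cannabinoids, 17 were higher (14 after a further quantile normalization) and 7 were lower in the DKO amygdala. Drd1, the dopamine D1 receptor, read 8.79, 8.65, 8.82, 8.6 and 8.81 in the amygdala and 7.78, 8.01, 7.72, 7.89 and 7.96 in the hippocampus. It was 1.82-fold higher (log2 difference 0.86, SE 0.07, adjusted p = 7.82e-06), and Drd2 was higher by a similar log2 difference (0.76). Drd5, the other D1-class receptor, had 6.81, 7.15, 6.95, 6.69 and 7.15 in the amygdala and 8.34, 8.26, 8.58, 8.12 and 8.59 in the hippocampus. It was 2.7-fold lower (log2 difference -1.43, SE 0.07, adjusted p = 1.46e-07). The serotonin receptor genes Htr1f (0.85) and Htr1d (0.61) were higher, while Htr1a (-0.43) and Htr4 (-0.45) were lower. Steroid and stress hormone genes divided too, with 9 of 20 higher and 6 lower (4 without the pairing). Beside Nr3c2, the steroid hydroxylase Cyp7b1 (-1.50), the cortisone reductase Hsd11b1 (-1.24) and the glucocorticoid receptor Nr3c1 (-0.32) were lower. The oestrogen receptor Esr1 (0.54) and the CRH-binding protein Crhbp (0.78) were higher.

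Genes of GABAergic neurons and of the striatum were higher in the amygdala. Of 26 genes of GABA synthesis, transport and interneurons, 18 were higher, 3 were lower and 5 did not pass the test. Gad2, a GABA-synthesizing enzyme, read 9.67, 9.62, 9.45, 9.68 and 9.86 in the amygdala and 8.96, 8.75, 9.01, 8.88 and 9.11 in the hippocampus. It was 1.65-fold higher (log2 difference 0.72, SE 0.07, adjusted p = 1.87e-05). Pvalb, the marker of fast-spiking interneurons, read 8.86, 8.87, 9.28, 8.43 and 9.24 in the amygdala and 9.92, 9.77, 9.95, 9.97 and 9.82 in the hippocampus. It was among the lower 3, and its amygdala arrays spread more than those of the hippocampus (log2 difference -0.95, SE 0.11, adjusted p = 9.93e-05). The factors Dlx5 (0.81) and Dlx6 (0.67), which GABAergic lineages express, were higher.

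Of 28 markers of striatal projection neurons, 17 were higher, 1 was lower and 10 did not pass the test. Their median was 0.43 in DKO mice and 0.60 in WT mice. Rgs9, a striatal regulator of G protein signalling, read 8.66, 8.44, 8.48, 8.76 and 8.9 in the amygdala and 7.57, 7.6, 7.58, 7.53 and 7.6 in the hippocampus, without overlap (log2 difference 1.07, SE 0.07, adjusted p = 1.35e-06). Rxrg (1.07), a retinoid X receptor, and Ppp1r1b (0.57), which encodes DARPP-32, were higher. The mean level over this list was 7.72 to 7.85 on the amygdala arrays and 7.26 to 7.34 on the hippocampus arrays. Of these markers 5 are also in the list of the central, medial and intercalated amygdala. The central amygdala shares its developmental origin with the striatum, which it borders, and the part of tissue at the border of the punch in these values was not tested.

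The cAMP and Ca2+ pathway beyond the cyclases divided by gene. Of 18 cyclic nucleotide phosphodiesterases, 7 were higher and 4 were lower in the DKO amygdala. Pde1a, a phosphodiesterase that Ca2+ and calmodulin activate, read 10.36, 10.58, 10.5, 10.12 and 10.53 in the amygdala and 9.24, 9.06, 9.27, 8.95 and 9.3 in the hippocampus. It was 2.38-fold higher (log2 difference 1.25, SE 0.07, adjusted p = 2.1e-07). Pde9a (0.84), Pde2a (0.62) and the striatal Pde10a (0.44) were higher. Pde7a (-0.34) and Pde8b (-0.31) were lower. Of 23 genes for subunits, anchors and targets of protein kinase A, 6 were higher, 3 were lower and 14 did not pass the test. Over all genes 14.2% were higher and 14.2% were lower, so the lower share here was near that background. Akap5, the anchor that ties the kinase to the postsynaptic membrane, read 9.26, 9.44, 9.41, 8.96 and 9.16 in the amygdala and 8.52, 8.47, 8.59, 8.49 and 8.49 in the hippocampus. The amygdala was higher at every time (log2 difference 0.73, SE 0.07, adjusted p = 2.39e-05), and the catalytic subunit Prkacb was higher as well (0.56). Creb1 itself did not pass the test (-0.15), and the coactivator Crebbp was lower (-0.22), a call lost without the pairing (adjusted p = 0.0818) and after a further quantile normalization (adjusted p = 0.183). Without the pairing 1 of the 3 lower genes was called.

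Of 22 genes for calmodulin, its kinases and its phosphatase, 4 were higher and 8 were lower. Camk2d, the delta chain of CaMKII, read 9.47, 9.64, 9.31, 9.21 and 9.67 in the amygdala and 7.92, 8.03, 7.97, 8.19 and 7.97 in the hippocampus. It was 2.72-fold higher in the amygdala (log2 difference 1.45, SE 0.09, adjusted p = 5.52e-07). Camk2b, the beta chain, read 8.99, 9.01, 9.15, 8.78 and 9.17 in the amygdala and 9.92, 9.98, 9.96, 9.8 and 10.01 in the hippocampus. It was 1.88-fold lower (log2 difference -0.91, SE 0.06, adjusted p = 7.63e-07). The alpha chain Camk2a (-0.48) and the calcineurin subunit Ppp3ca (-0.67) were lower, and Camk1g (0.96) and Camk4 (0.69) were higher.

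Transcription factors of forebrain patterning divided along the same lines. Of 59 measured, 24 were higher, 15 were lower and 20 did not pass the test. Nr2f2, also called COUP-TFII, a factor of caudal forebrain and of some interneurons, read 9.08, 9.27, 8.94, 8.67 and 8.7 in the amygdala and 7.3, 7.18, 7.04, 7.27 and 7.13 in the hippocampus. It was 3.37-fold higher (log2 difference 1.75, SE 0.09, adjusted p = 1.4e-07). Pbx3 (0.75) and Tshz2 (0.77) were higher, and Lhx9 (-0.92) and Zeb2 (-0.85) were lower. Among 52 genes of Wnt, BMP and retinoid signalling, 15 were higher (11 after a further quantile normalization) and 9 were lower. The share over all genes was 14.2% in each direction. The retinoic acid binding protein Crabp1 (1.61) was among the higher ones. The retinaldehyde dehydrogenases Aldh1a1 (-1.79) and Aldh1a2 (-0.92) were among the lower ones.

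Guidance and adhesion genes had large differences in both directions. Of 56 guidance genes, 12 were higher and 19 were lower in the DKO amygdala. Sema3a, a secreted repellent, read 8.49, 8.85, 8.61, 8.41 and 8.82 in the amygdala and 6.71, 6.91, 7.03, 6.58 and 6.87 in the hippocampus. It was 3.52-fold higher (log2 difference 1.81, SE 0.07, adjusted p = 1.73e-08). Nrp1, its receptor, had 7.27, 7.24, 7.68, 6.87 and 7.48 in the amygdala and 8.64, 8.71, 8.99, 8.54 and 8.84 in the hippocampus. It was 2.7-fold lower (log2 difference -1.43, SE 0.07, adjusted p = 7.24e-08). Epha7, an Eph receptor, gave 8.97, 9.23, 8.97, 8.67 and 9.11 in the amygdala and 10.69, 10.83, 10.84, 10.48 and 10.9 in the hippocampus. It was lower in all pairs (log2 difference -1.76, SE 0.06, adjusted p = 8.76e-09), and Epha4 (-1.37) and Epha6 (-1.09) were lower too. Efnb2, an ephrin, read 8.38, 8.18, 8.52, 8.1 and 8.18 in the amygdala and 7.35, 7.05, 7.44, 6.84 and 7.19 in the hippocampus, with the amygdala higher (log2 difference 1.10, SE 0.06, adjusted p = 2.47e-07). Of 26 cadherins and protocadherins, 11 were higher and 8 were lower. Cdh7 read 8.22, 8.7, 8.25, 8.13 and 8.38 in the amygdala and 7.17, 6.92, 7.01, 7.49 and 7.2 in the hippocampus, without overlap (log2 difference 1.18, SE 0.12, adjusted p = 2.93e-05). Cdh12 read 6.97, 6.53, 7.15, 6.36 and 6.9 in the amygdala and 8.05, 8.1, 8.06, 8.22 and 8.29 in the hippocampus, with the opposite order (log2 difference -1.36, SE 0.11, adjusted p = 5.03e-06).

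Ion channels and synaptic proteins differed in both directions. Of 38 potassium channel genes, 8 were higher and 14 were lower, 1 and 2 of them by 1.5-fold. Kcng3, a modifying subunit, read 7.34, 7.42, 7.34, 6.94 and 7.34 in the amygdala and 6.53, 6.6, 6.71, 6.67 and 6.54 in the hippocampus. It was higher in the amygdala at every time, least at 48 hr (log2 difference 0.67, SE 0.08, adjusted p = 0.000126). Kcnab2, a beta subunit, gave 7.96, 7.97, 8.06, 7.71 and 7.99 in the amygdala and 8.65, 8.78, 8.78, 8.51 and 8.62 in the hippocampus. It was lower throughout (log2 difference -0.73, SE 0.06, adjusted p = 4.11e-06), as was Kcnc2, a channel of fast-firing neurons (-0.70). Of 27 calcium and sodium channel genes, 5 were higher and 11 were lower (8 after a further quantile normalization), among them Scn3b (-0.69) and Scn1a (-0.56). Of 47 genes of synaptic vesicles and the SNARE machinery, 13 were higher, led by Sv2c (0.78) and Syt4 (0.65). The 12 lower ones (8 after a further quantile normalization) were led by Stxbp6 and Vamp1 (-0.74). This list had a mean level of 8.38 to 8.63 on the amygdala arrays, and over all genes 14.2% were higher and 14.2% were lower. Of 44 genes of the respiratory chain, 12 were lower and none was higher, the largest by 0.30 on the log2 scale (Ndufs1). The mean level of this list was 10.25 to 10.56 on the amygdala arrays. In the class with the highest level, 2211 of 7213 transcript clusters were lower and 620 were higher. The part of level in the counts of the channel, synaptic and respiratory chain lists was not tested. After a further quantile normalization 2 of the 44 genes were lower, and 3 to 8 were lower when a time label was left out.

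Glial and vascular markers that passed the test were lower in the amygdala. Of 21 genes of oligodendrocytes and myelin, 13 were lower and 8 did not pass the test, with mean list levels of 7.70 to 8.10 on the amygdala arrays and 8.12 to 8.28 on the hippocampus arrays. Aspa, an enzyme of oligodendrocytes, read 7.41, 7.49, 7.5, 6.94 and 7.72 in the amygdala and 8.05, 8.08, 8.3, 8.38 and 8.21 in the hippocampus. The 48 hr array was the lowest of the amygdala, and no arrays overlapped (log2 difference -0.79, SE 0.11, adjusted p = 0.000379). The myelin genes Mobp (-0.62), Mog (-0.36) and Mbp (-0.30) were lower. Of 18 astrocyte genes, 9 were lower and 9 did not pass the test. Gfap, the intermediate filament of astrocytes, read 7.3, 7.15, 7.46, 7.11 and 7.13 in the amygdala and 8.11, 8.29, 8.33, 8.26 and 8.22 in the hippocampus. It was 2.02-fold lower (log2 difference -1.01, SE 0.07, adjusted p = 1.01e-06), and the water channel Aqp4 was lower as well (-0.73). Of 17 endothelial and pericyte genes 8 were lower, none by 1.5-fold. Of 17 microglia genes 1 was lower, Gpr34 (-0.18), a call lost without the pairing (adjusted p = 0.122). Cx3cr1 (0.14) and Aif1 (-0.01) did not pass the test, but Cx3cr1 was higher after a further quantile normalization (0.23, adjusted p = 0.00963).

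Markers of tissue beside the punched regions moved with the region too. Of 17 genes of meninges and fibroblasts, 10 were lower in the DKO amygdala and 1 was higher. Slc6a13, a GABA transporter of the meninges, read 6.2, 5.82, 5.73, 5.83 and 6.03 in the amygdala and 7.26, 7.38, 7.25, 7.16 and 6.86 in the hippocampus, without overlap (log2 difference -1.26, SE 0.10, adjusted p = 3.42e-06). Ptgds, a prostaglandin D synthase of meninges and choroid plexus that was not in the list, read 9.66, 9.14, 9.55, 9.05 and 9.46 in the amygdala and 11.39, 11.64, 11.27, 11.4 and 11.23 in the hippocampus. It was 4.04-fold lower (log2 difference -2.02, SE 0.11, adjusted p = 2.47e-07). The mean level of the meninges list was 6.56 to 6.76 on the amygdala arrays and 6.93 to 7.20 on the hippocampus arrays. The part of meningeal tissue in other differences was not tested.

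Of 19 thalamic genes, 14 were lower in the DKO amygdala, none was higher and 5 did not pass the test, with a median of -0.55 in DKO mice and -0.32 in WT mice. Tcf7l2, the Wnt pathway factor of thalamic neurons, read 7.66, 7.57, 7.71, 7.26 and 7.75 in the amygdala and 9.41, 9.43, 9.09, 9.73 and 9.31 in the hippocampus. It was 3.49-fold lower (log2 difference -1.80, SE 0.12, adjusted p = 9.64e-07). Slc17a6, the vesicular glutamate transporter of thalamic neurons, read 7.62, 7.85, 7.43, 7.47 and 7.49 in the amygdala and 8.81, 8.46, 8.48, 9.23 and 8.58 in the hippocampus. Here the 48 hr hippocampus array was the highest (log2 difference -1.14, SE 0.12, adjusted p = 3.91e-05). Prkcd gave 8.15, 8.23, 7.92, 7.93 and 8.52 in the amygdala and 9.38, 9.33, 9.12, 9.99 and 9.17 in the hippocampus. The same array stood highest (log2 difference -1.25, SE 0.14, adjusted p = 7.51e-05). Vav3 read 5.68, 5.81, 5.77, 5.6 and 5.7 in the amygdala and 7.62, 7.37, 7.63, 7.76 and 7.85 in the hippocampus. It was 3.82-fold lower in the amygdala (log2 difference -1.93, SE 0.08, adjusted p = 5.05e-08). The mean level of the 19 genes was 6.95 to 7.13 on the amygdala arrays and 7.64 to 8.03 on the hippocampus arrays, and the 48 hr hippocampus array had the highest, 8.03. All 14 calls remained in number when any 1 time label was left out. The median of the list over the 5 pairs was -0.69, -0.52, -0.46, -1.17 and -0.43, so that every pair had the same sign. The thalamus lies under the dorsal hippocampus, and the part of thalamic tissue in other differences was not tested.

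Genes of the choroid plexus varied by array more than by region. Ttr, the transthyretin of choroid plexus, read 13.04, 10.14, 13.08, 12.68 and 13.17 in the amygdala and 13.34, 13.33, 10.25, 11.01 and 10.12 in the hippocampus. The 0 hr array of the amygdala was far below the other 4, and the hippocampus arrays were high at baseline and 0 hr and low at the later times. The regions overlapped and did not differ by the test (log2 difference 0.81, SE 0.68, adjusted p = 0.385). Of the 19 genes of choroid plexus and ependyma, 5 were higher in the amygdala and 14 did not pass the test. Without the 0 hr pair 14 were higher. Rsph1, a radial spoke protein of motile cilia, read 8.29, 7.86, 8.59, 7.98 and 8.5 in the amygdala and 7.73, 8.1, 7.06, 7.45 and 7.22 in the hippocampus. The regions overlapped through the 0 hr pair (log2 difference 0.73, SE 0.19, adjusted p = 0.0149), and the call was lost without the 1 hr pair (adjusted p = 0.0514). Htr2c, a serotonin receptor of choroid plexus as well as of amygdala neurons, read 9.51, 9.35, 9.3, 9.22 and 9.26 in the amygdala and 9.01, 8.47, 7.12, 7.75 and 7.6 in the hippocampus. The amygdala arrays were alike, and the hippocampus arrays were highest at baseline and 0 hr, the arrays with the highest Ttr (log2 difference 1.34, SE 0.18, adjusted p = 0.000254). Its difference was 1.55 without the baseline pair and 1.45 without the 0 hr pair. Kl (0.05) and Clic6 (0.61), other choroid plexus markers, did not pass the test. The mean level of the 19 genes was 6.95 to 7.84 on the amygdala arrays and 6.79 to 7.82 on the hippocampus arrays. The part of choroid plexus in other differences was not tested.

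**Figure D3:**
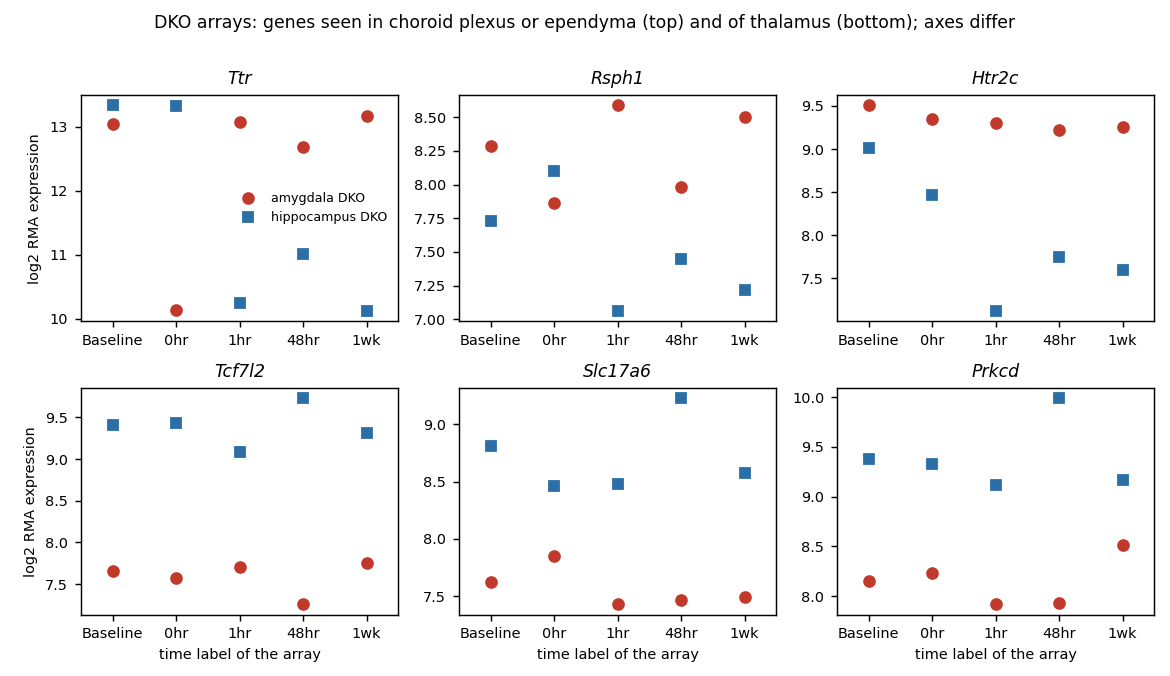
Log2 RMA expression on the DKO arrays, amygdala as red circles and hippocampus as blue squares, at each time label. Ttr, Rsph1 and Htr2c (top, seen in choroid plexus or ependyma) change between arrays of 1 region, and Tcf7l2, Slc17a6 and Prkcd (bottom, thalamus) are highest on the 48 hr hippocampus array.

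**Figure D4:**
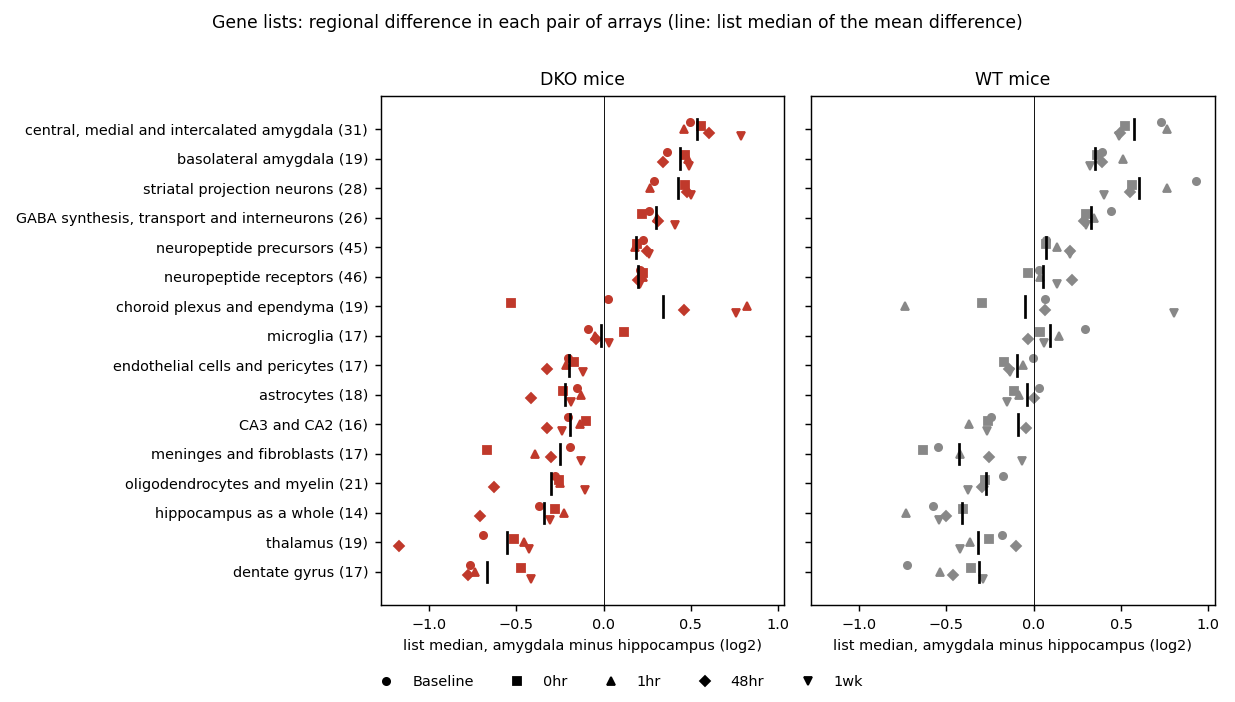
Median over the genes of each list (number measured in parentheses) of the log2 difference between amygdala and hippocampus in each pair of arrays, with DKO mice in red and WT mice in grey, and the median of the mean difference as a line. In DKO mice the amygdala and striatal lists are positive and the lists of the dentate gyrus, of CA3 and CA2, of the hippocampus as a whole and of the thalamus negative in all 5 pairs, while the choroid plexus list runs from -0.53 at 0 hr to 0.82 at 1 hr.

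Immediate early genes, which neuronal activity switches on, differed in both directions. Of 37 measured, 9 were higher and 7 were lower in the DKO amygdala, against 14.2% higher and 14.2% lower over all genes. For none of the higher ones were the arrays of the regions separate. The 9 became 5 after a further quantile normalization, 5 without the pairing and 6 to 10 when a time label was left out. Egr2 read 7.14, 7.32, 8.04, 6.95 and 7.14 in the amygdala and 6.57, 6.58, 7.79, 6.28 and 6.18 in the hippocampus. Both regions were highest at 1 hr, and the amygdala was the higher one in every pair (log2 difference 0.64, SE 0.09, adjusted p = 0.000257). This call was lost without the pairing (adjusted p = 0.0736). Fos gave 6.5, 6.72, 6.83, 6.22 and 6.38 in the amygdala and 6.36, 6.53, 6.62, 6.4 and 6.27 in the hippocampus, and it did not pass the test (log2 difference 0.09, SE 0.07, adjusted p = 0.326). For Npas4, a factor specific to neurons, the values were 6.54, 6.91, 6.57, 6.42 and 6.42 in the amygdala and 6.27, 6.39, 6.22, 6.13 and 6.43 in the hippocampus. It was slightly higher (log2 difference 0.29, SE 0.07, adjusted p = 0.0144), but not after a further quantile normalization (adjusted p = 0.0547). Ptgs2, the inducible cyclooxygenase, read 7.08, 7.54, 7.78, 7.05 and 7.71 in the amygdala and 8.61, 8.78, 8.58, 8.34 and 8.76 in the hippocampus. It was 2.27-fold lower in the amygdala, without overlap (log2 difference -1.18, SE 0.09, adjusted p = 2.93e-06).

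Of 272 microRNA genes measured, 52 were higher and 13 were lower in the DKO amygdala, against 31 and 12 after a further quantile normalization. Over all genes as deposited, 14.2% were higher and 14.2% were lower. The probes of the microRNA transcript clusters lie on the primary transcript or the hairpin, so they do not measure the mature microRNA. Differences of 1.5-fold were found for Mir218-1 and Mir15a alone. Their 5′ products are shown with the seed (bases 2 to 8) in capitals, and miR-16-5p is added since Mir16-1 neighbours Mir15a (RefSeq, GRCm38.p6).
miR-218-5p, chr5:48223966-48223986, plus strand: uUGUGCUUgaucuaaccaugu
miR-15a-5p, chr14:61632075-61632096, minus strand: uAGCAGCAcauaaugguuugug
miR-16-5p, chr14:61631936-61631957, minus strand: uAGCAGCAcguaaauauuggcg
miR-15a-5p and miR-16-5p share the seed AGCAGCA, while the seed of miR-218-5p is UGUGCUU. Mir218-1 read 7.36, 7.46, 7.32, 6.96 and 7.38 in the amygdala and 6.26, 6.68, 6.34, 6.75 and 6.26 in the hippocampus. The amygdala was higher, least at 48 hr (log2 difference 0.84, SE 0.11, adjusted p = 0.000249). It lies within the span of Slit2, a guidance ligand, which read 8.56, 8.57, 8.77, 8.26 and 8.71 in the amygdala and 8.03, 8.09, 7.6, 7.7 and 7.96 in the hippocampus and was higher as well (log2 difference 0.70, SE 0.09, adjusted p = 0.000207). Mir15a read 7.44, 7.79, 7.09, 7.03 and 7.12 in the amygdala and 7.93, 8.26, 7.98, 7.77 and 7.91 in the hippocampus. It was lower in the amygdala in all pairs although 1 amygdala array overlapped the hippocampus (log2 difference -0.68, SE 0.07, adjusted p = 4.84e-05). Mir16-1 was lower by less (log2 difference -0.24, SE 0.06, adjusted p = 0.0191). Dleu2, in whose span both lie, did not pass the test (log2 difference -0.01, SE 0.10, adjusted p = 0.959).

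The imprinted region between Dlk1 and Dio3 on chromosome 12, which holds several noncoding RNAs and microRNAs expressed from the maternal copy, leaned to the amygdala. Of 47 genes measured there, 19 were higher in the DKO amygdala, none was lower and 28 did not pass the test. The median was 0.21 in DKO mice and 0.18 in WT mice. Over all genes 14.2% were higher and 14.2% were lower in DKO mice, with a median of 0.04. In the class with the lowest level, 727 transcript clusters were higher and 166 were lower, and the part of level in this region was not tested. After a further quantile normalization 16 were higher. Meg3 (0.56), Rian (0.51), Rtl1 (0.51) and Mir370 (0.48) were higher, as were Dlk1 (0.34) and Dio3 (0.34) at the ends of the region. Neighbouring transcripts here may come from shared precursors, so these genes are not independent. The region was looked at after these values had been seen.

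The regional difference was present at each time label. Counted on 1 array against 1 array, with no test, transcript clusters at least 2-fold higher and lower in the DKO amygdala numbered 73 and 173 at baseline, 121 and 152 at 0 hr, 103 and 113 at 1 hr, 83 and 222 at 48 hr, and 147 and 139 at 1 wk. In all 5 pairs, 38 were higher and 56 were lower by 2-fold, and 121 were higher and 236 were lower by 1.5-fold. WT pairs varied more, with 295 higher and 65 lower by 2-fold at baseline and 31 and 122 at 48 hr. Of the DKO counts, 21 higher and 19 lower transcript clusters passed 2-fold in all 5 WT pairs too.

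Among calls above the median level, Nts, Sulf1, Pifo, Rsph1 and Htr2c had the largest spread of the paired differences. Nts differed by 1.12 at baseline and by 3.35 at 1 wk. Sulf1, a heparan sulphate sulphatase that choroid plexus also expresses, differed by 0.18, -0.44, 1.54, 1.00 and 1.50. The Sulf1 call was lost in 11 of 23 alternatives. Pifo, a gene of cilia, differed by 0.69, 0.06, 1.48, 0.90 and 1.93. For Sulf1, Pifo and Rsph1 the 0 hr pair was the lowest, the pair in which Ttr was lowest in the amygdala relative to the hippocampus.

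In WT mice 2201 of the 28853 transcript clusters (7.63%) differed between the regions, 1355 higher and 846 lower in the amygdala. The spread within a transcript cluster was larger there, with a median residual SD of 0.117 against 0.101 in DKO mice. No array belongs to both fits. Of the 777 DKO calls of 1.5-fold, 653 (84.0%) were also called in WT mice, all in the same direction, and 768 had the same sign. Of the 658 WT calls of 1.5-fold, 642 (97.6%) were called in DKO mice, again all in the same direction. A DKO call that WT lacks does not by itself show a difference between the genotypes, which was tested separately. Over the 777 transcript clusters the median difference was 0.77 in DKO and 0.88 in WT mice for the higher ones, and -0.80 in DKO and -0.56 in WT mice for the lower ones. These were chosen by the size of their DKO difference, so the sizes in DKO and WT mice cannot be compared on them. As a description over all transcript clusters, which share arrays and normalization, the differences of the genotypes had a Pearson r of 0.635.

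**Figure D5:**
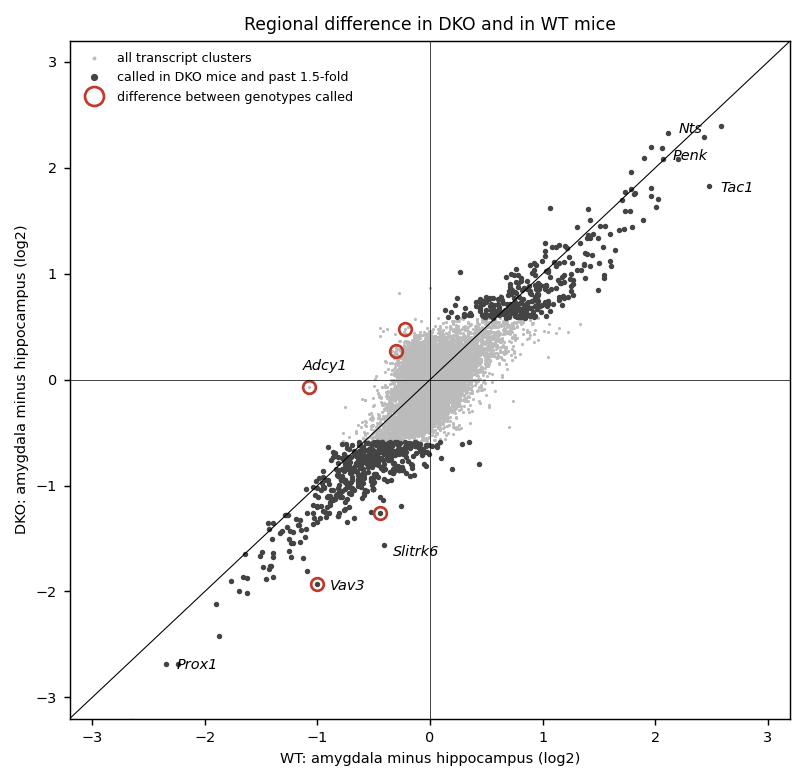
Log2 difference between amygdala and hippocampus for each of 28853 transcript clusters in DKO mice (vertical) and WT mice (horizontal), with the line of equal values. Dark points were called in DKO mice and reached 1.5-fold, and red rings mark the 5 transcript clusters whose difference between genotypes passed the test, Adcy1 and Vav3 among them.

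The difference itself was tested over all 20 arrays. It passed the test for 5 of 28853 transcript clusters (0.0173%), while 6524 had an unadjusted p under 0.05. Besides Adcy1 these held Vav3, which was lower in the amygdala by 1.93 in DKO mice and by 1.01 in WT mice on the log2 scale (difference -0.93, SE 0.13, adjusted p = 0.0273). In WT mice Vav3 read 6.13, 5.95, 6.12, 6.0 and 5.93 in the amygdala and 6.84, 6.98, 7.11, 6.97 and 7.25 in the hippocampus, so that the genotypes differed more in the hippocampus than in the amygdala. Vav3 is in the thalamic list, of which 10 of 19 genes had an unadjusted p under 0.05 for the difference between genotypes. The mean level of that list on the hippocampus arrays was 7.64 to 8.03 in DKO mice and 7.31 to 7.73 in WT mice. The part of thalamic tissue in the Vav3 difference was not tested. The other 3 did not carry a single gene symbol. Transcript cluster 10507473 differed by 0.48 in DKO and by -0.22 in WT mice, 10395606 by -1.26 and by -0.45, and 10523843 by 0.27 and by -0.30 in the same order. Leaving out the arrays of any 1 time label other than 48 hr left no call in limma, with 3225 to 6760 transcript clusters at an unadjusted p under 0.05, and without the 48 hr arrays there were 614. Those 614, of which 375 were higher and 239 lower in DKO than in WT mice, held all 5. For Slitrk6 (difference between genotypes -1.04), Tac1 (-0.99) and Etnppl, a phospholyase of astrocytes (-0.81), the regional difference was lower in DKO than in WT mice. For F2rl3 (0.845) it was higher. These genes are examples, and others differed as much, such as Zfp931 (-1.407), Ctla2a (-0.995) and Vmn2r54 (1.146). Olfactory receptor genes such as Olfr371 (0.594) were among the higher ones. The 614 calls were not examined by level or after a further quantile normalization, which left 2 calls over all 20 arrays.

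By size, the genes called in DKO mice and not in WT mice were led by Slitrk6, a transmembrane protein of neurite growth. It read 4.9, 5.01, 4.71, 5.03 and 5.17 in the amygdala and 6.24, 6.48, 6.31, 7.36 and 6.22 in the hippocampus. The regions were separate, with the 48 hr hippocampus array the highest, as for Tcf7l2, Slc17a6 and Prkcd (log2 difference -1.56, SE 0.14, adjusted p = 8.08e-06). In WT mice it read 5.61, 5.16, 5.57, 4.92 and 5.15 in the amygdala and 5.58, 5.21, 5.72, 5.67 and 6.29 in the hippocampus, and the regions overlapped. The difference between genotypes was -1.15 (SE 0.24, adjusted p = 0.11). Slc17a6 (-1.14 in DKO and -0.42 in WT mice) and Pifo (1.01 in DKO and 0.26 in WT mice) followed, and neither passed the test of the difference (adjusted p = 0.145 and 0.161). Of the genes called in WT mice and not in DKO mice, Adcy1 alone passed that test. Pde1b, the phosphodiesterase of striatal neurons, differed by 0.15 in DKO mice and by 0.61 in WT mice, with an adjusted p of 0.129 for the difference between genotypes. After a further quantile normalization it was called in DKO mice too (0.22, adjusted p = 0.0166). Because DKO mice were not littermates of the WT mice, genotype and origin of the mice cannot be told apart in these comparisons.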

How the data were processed

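RNA from amygdala and hippocampus was hybridised to Affymetrix Mouse Gene 1.0 ST arrays, a single-colour design. The deposited values are log2 expression per transcript cluster, which the authors obtained with RMA (background correction, quantile normalization and summary of probes) in Expression Console, whose version is not given in the sources used here. They were used as deposited, without a filter on low values. The number of arrays and their spread limit the precision, and small differences also depended on level and normalization. Gene names came from the platform annotation, and a gene stands for the transcript cluster that carries its symbol alone, the one with the highest mean where there were several.

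Regions were compared in DKO mice with limma (3.58.1, R 4.3.3) on the 10 arrays, with the time label as a block and a region term. WT mice were fitted in the same way, and the difference between genotypes was fitted on all 20 arrays with a block for each genotype and time label. P-values are two-sided moderated tests, adjusted by Benjamini-Hochberg over all transcript clusters, and an adjusted p under 0.05 was called. The tests were checked on simulated data. The time label is the pairing that defines the comparison. The deviations of arrays with the same label correlated between regions at 0.24, -0.04, 0.12, 0.10 and 0.21 in DKO mice, in the order of time. In WT mice, fitted with the same block, they correlated at -0.27, -0.04, 0.53, -0.39 and 0.27. Thus not every pair deviated together.

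Named genes were the disrupted pair, the 15 largest non-overlapping calls in each direction, up to 6 called members of each of 35 gene lists in each direction with their defining markers, calls of the difference between genotypes, the 5 calls with the largest spread of paired differences, and up to 10 genes called in 1 genotype only in each direction. Pcsk1, Fos, Dleu2, the microRNA genes named in the text, the region between Dlk1 and Dio3, the promoter set and any other gene outside this rule were chosen after their values were seen. The comparison, members and lists were chosen with earlier results of these data known. Alternatives were the fit without the block, other normalizations and filters, other limits, array weights, the plain t-test of the methods, and leaving out each time label or array. Figures were drawn with matplotlib 3.10.9.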

Additional observations from a re-analysis of the deposited data

Results flagged for a closer look

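Of 134 sets of 5 arrays tested for a value far from the others, 11 had one, and chance alone gives about 1 in 20. On the 48 hr amygdala array, Lct read 5.92 (the other 4 arrays 6.35 to 6.52), Grin2a 8.35 (9.02 to 9.16), Kcng3 6.94 (7.34 to 7.42), Kcnab2 7.71 (7.96 to 8.06) and Mir218-1 6.96 (7.32 to 7.46), all lower than the others. Dleu2 read 3.97 there, above the other 4 (3.32 to 3.46). That array also had the narrowest spread of values, an SD of 1.71 over transcript clusters, whose part in these values was not tested. On the 48 hr hippocampus array Slitrk6 read 7.36 (6.22 to 6.48) and Crh 5.37 (5.53 to 5.6). Iyd read 6.38 on the 1 wk amygdala array (6.83 to 6.87). Ttr, of choroid plexus, read 10.14 on the 0 hr amygdala array (12.68 to 13.17). Egr2 read 7.79 on the 1 hr hippocampus array (6.18 to 6.58).

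The regional difference itself differed between DKO and WT mice by the test for 5 transcript clusters. The values were 1.01 for Adcy1, -0.93 for Vav3, and 0.70, -0.81 and 0.57 for transcript clusters 10507473, 10395606 and 10523843, which do not carry a single gene symbol.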

How the results depend on the processing

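The number of transcript clusters called between regions in DKO mice, 7919, fell to 3196 with the plain t-test of the methods, 3729 at an adjusted p of 0.01 and 777 with at least 1.5-fold. It was 5880 among those above the median level, and 3773 to 6642 when a time label or, without the block, a single array was left out. The 777 calls of 1.5-fold became 776 to 892 under the alternatives run for this count, which were chosen after seeing the data. These were the fit without the block, the further quantile normalization, median centring and leaving out each time label. The count at 1.5-fold was not taken with the plain t-test, with array weights or without single arrays. In WT mice the 2201 calls became 3354 with array weights, 1148 at an adjusted p of 0.01, 658 with at least 1.5-fold and 1191 to 2884 without a time label, the lowest without 1 hr and the highest without 48 hr. The 5 calls of the difference between genotypes became 11 above the median level, 2 after a further quantile normalization, 1605 with array weights, 0 at an adjusted p of 0.01 and 32 at 0.1. Leaving out a time label gave 0 to 614 in limma, with 614 only without 48 hr and 0 without any other, where 3225 to 6760 had an unadjusted p under 0.05. The cause was not tested.

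Without the replicate block, 5477 transcript clusters were called in DKO mice, 2476 in WT mice and 3 for the difference between genotypes. In DKO mice 4 of 5 amygdala arrays correlated best with the hippocampus array of their own label, a hint from the data and not from the design. In WT mice this held for the 1 hr array alone.

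Over 312 named genes and the alternatives, 6640 of 7127 values kept their direction and call, 433 lost the call, 29 gained one and 25 changed sign. The sign changes were of genes near 0. After a further quantile normalization Bok was at 0.011 and Aif1 at 0.025, and the median of the protein kinase A list at 0.011. With array weights Aif1 was at 0.011 and Kl at -0.022, and after centring Col1a2 was at -0.039 and 1700048O20Rik at -0.022. Leaving out a time label or an array gave -0.074 to 0.059 for Aif1, -0.025 to 0.050 for Col1a2, -0.047 to 0.091 for 1700048O20Rik and -0.117 to 0.439 for Kl.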
